A study of Sus scrofa with 8 samples.

Results

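In the lining of the pig uterus, 11 of 21064 annotated genes had almost no reads in 4 control gilts on day 14 and were clearly expressed in 4 pregnant gilts on the same day. A gene was taken when its level was under 1 CPM (the count of a gene for each 1000000 counts of its library) in every control library and at least 4 CPM in every pregnant library, with the transcript of highest mean count standing for each gene. Those limits were met by 19 genes, 0.0902% of all. Of these, 8 were left out by name: CDSN, CXCL9, IDO1, NPY, PCK1, S100A9, SAA3 and WNT7B. The same limits turned round, on in every control and under 1 CPM in every pregnant library, were met by 7 genes (0.0332%). The 11 genes were chosen by these very values, so their levels and fold changes are a description and carry no test.

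Of the 11 genes, 6 have a symbol in the RefSeq gene table, among them ISG20, SAA1P, LOXL4, STEAP1 and TUBAL3. The other 5 are known by Entrez ID alone, 100151963, 100513930, 100516362, 100738558 and 100739494, and no name or role is given to them here. At this stage the pig conceptuses have elongated, release oestrogen and interferons, and begin to attach to the uterine epithelium. Interferons act through JAK and STAT proteins and the transcription factor IRF1 to switch on sets of antiviral and antigen-presenting genes in the endometrium. Oestrogen of conceptus origin acts on the same tissue and helps to keep the corpora lutea, and with them progesterone, in place.

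The animals were German Landrace gilts that had not reached puberty, brought to ovulation with 750 IU PMSG followed after 72 h by 500 IU hCG. Gilts of the pregnant group were inseminated with Pietrain semen at 24 h and again at 36 h after hCG. Control gilts received only the supernatant of spun semen from that boar. Endometrium without the muscle layer was taken in pregnant gilts from hyperemic zones, where embryos attach, and in controls from matching places, so pregnancy and the choice of zone cannot be told apart. RNA from 3 places along 1 horn was pooled per animal, and each library is 1 animal (n = 4 in each group). Poly(A) libraries without strand information were sequenced.

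Library totals ran from 29009827 to 41016150 counts in the pregnant group and from 28035007 to 32639743 in the control group. Spearman's rho between 2 libraries was 0.967 to 0.986 inside a group, against 0.916 to 0.957 across groups. Control replicate 4 stood apart from the other controls on the first principal component, at -27.81 against -46.07 to -42.32, with pregnant libraries at 35.48 to 42.19. It gave the highest control level of STEAP1, 100516362 and 100513930. Without it, 17 genes met the limits and the name rule, among them all 11. The group difference was broad, with 11.6% of 15913 tested genes higher and 10.1% lower in pregnant gilts by edgeR's quasi-likelihood test at a Benjamini-Hochberg adjusted p under 0.05.

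"Silent" here means close to 0, not absent, and in whole tissue fewer cells of a type and less RNA per cell cannot be told apart. Every one of the 11 genes had some control reads, from 5 reads over the 4 libraries (100738558) to 83 (SAA1P). Of the 44 control values, 5 were 0, spread over 4 genes. Summed over the 11 genes, pregnant libraries held 177.5 to 221.2 CPM, against 3.60 to 5.09 CPM in control libraries. The ratio of mean CPM ran from 14.8 (TUBAL3) to 379 (100738558), with a median of 48.04. The lowest pregnant library was 5.05 to 100.3 times the highest control library of the same gene. These ratios use library totals, on which the median log2 change over tested genes was -0.15, against -0.02 after TMM scaling.

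**Figure D1:**
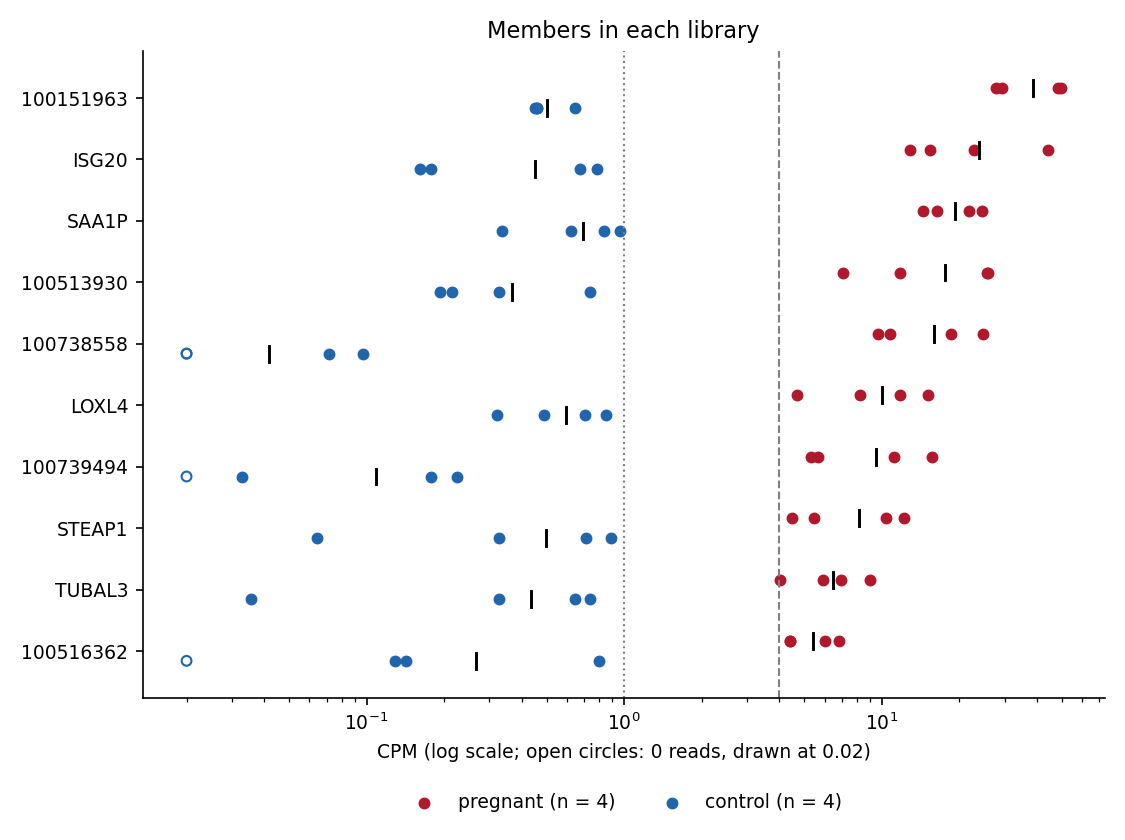
Level of 10 of the 11 genes in each library, in CPM on a log scale. Points are libraries (pregnant above control in each row), bars are group means, open circles mark 0 reads, and the dotted and dashed lines are the limits of 1 and 4 CPM that chose the genes. All pregnant points lie right of the dashed line and all control points left of the dotted line, as the choice requires, and 100738558 has the widest gap.

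Close to the control limit, the genes just inside were SAA1P with a highest control library of 0.963 CPM, STEAP1 with 0.888 CPM and LOXL4 with 0.851 CPM. Just outside were IL1R2 (1.01 CPM), 100517730 (1.09 CPM) and 100737815 (1.15 CPM). At the pregnant limit, TUBAL3 (lowest pregnant library 4.02 CPM), 100516362 (4.40 CPM) and STEAP1 (4.49 CPM) were just inside, and CA3 (3.97 CPM), RHBG (3.93 CPM) and TFEC (3.90 CPM) just outside. IL1R2 and 100517730 are also direct neighbours of genes in the set, as given below.

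ISG20 was the only gene of the set on the list of interferon-stimulated genes, which the 5 genes without a symbol could not match. It encodes an interferon-induced exonuclease that degrades single-stranded RNA from its 3' end and restricts RNA viruses. Its level was 12.9, 22.9, 44.3 and 15.4 CPM in pregnant replicates 1 to 4, against 0.786, 0.161, 0.178 and 0.674 CPM in control replicates 1 to 4. Pregnant replicate 3 was the highest and the groups did not overlap. The means were 23.9 ± 14.3 CPM in pregnant and 0.450 ± 0.327 CPM in control gilts (SD, n = 4 each), a log2 ratio of 5.73 ± 0.68 (SE). The deposited model of ISG20 is a single exon of 185 bases (Sscrofa10.2, chromosome 1, 212618691 to 212618875, minus strand), so its level per kb rests on a short stretch. The CPM limits take no account of length. Per kb of exon, ISG20 in control gilts (2.43 CPM per kb) was near LOXL4 in pregnant gilts (2.83 CPM per kb).

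Most other interferon-stimulated genes were higher too. Among 43 other tested genes of the list, 40 passed as higher by edgeR and 0 as lower, with a median log2 change of 2.54. DESeq2 and limma voom each called the same numbers, 40 higher and 0 lower, and 41 had an unadjusted p under 0.05. OAS1, OAS2 and EIF2AK2 did not pass. Of all genes tested, 11.6% were higher and 10.1% lower. IDO1 and CXCL9, among the 40, met the limits themselves and were left out by name, so their calls follow from the choice. IRF1, the transcription factor that drives many of these genes, was at 445 ± 91.4 CPM in pregnant and 49.9 ± 6.95 CPM in control gilts (log2 change 3.29 ± 0.19, edgeR adjusted p = 4.25e-06). The summed list stood at 5569, 8314, 11596 and 7569 CPM in pregnant replicates 1 to 4 and at 1297 to 1523 CPM in controls. Both this sum and ISG20 ran from replicate 3 down through 2 and 4 to 1, an order seen in 3.10% of the 10447 genes with at least 4 CPM in all pregnant libraries. The closest relatives of ISG20 did not pass the test: ISG20L2 (adjusted p = 0.0848), AEN (0.065) and REXO4 (0.517). DESeq2 called 1 of those 3 as higher.

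The ID 100151963 lies in the same stretch of chromosome 4 as the guanylate-binding proteins, interferon-induced GTPases that attack the membranes around intracellular pathogens. Its accession is that of a non-coding RNA model, with 11 exons over 1907 bases (139453256 to 139485845, minus strand). Levels were 29.3, 48.4, 27.8 and 49.7 CPM in pregnant replicates 1 to 4, against 0.458, 0.450, 0.642 and 0.460 CPM in control replicates 1 to 4. Replicates 2 and 4 were the higher pregnant libraries, and the controls were almost level apart from replicate 3. The mean was 38.8 ± 11.9 CPM in pregnant and 0.503 ± 0.093 CPM in control gilts (SD, n = 4 each), a log2 ratio of 6.27 ± 0.26 (SE).

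All 4 tested genes within 100 kb of 100151963 were higher in pregnant gilts. LOC100523492 averaged 104 CPM in pregnant and 2.62 CPM in control gilts (log2 change 5.45 ± 0.35), and 100737841 averaged 79.0 and 2.14 CPM (5.33 ± 0.47). LOC100523668 averaged 142 CPM in pregnant and 3.34 CPM in control gilts (5.54 ± 0.33), and LOC100155195 averaged 309 and 6.76 CPM (5.64 ± 0.30). The edgeR adjusted p of these 4 lay between 2.62e-06 and 7.04e-05. GBP2 and GBP1 begin further along, at 139612352 and 139651544, and GBP2 changed by 4.96 ± 0.28. The log2 changes of the 4 neighbours fall within 1 unit of the ratio of 100151963, and each had at least 1 control library above 1 CPM.

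SAA1P carries the biotype pseudogene in the RefSeq gene table, whereas the model behind the deposited counts has the accession of a predicted messenger RNA. It belongs to the serum amyloid A genes, whose proteins are apolipoproteins of the acute-phase response, made in the liver and, for some members, in epithelia. It had 21.9, 24.6, 16.3 and 14.4 CPM in pregnant replicates 1 to 4, against 0.622, 0.836, 0.963 and 0.337 CPM in control replicates 1 to 4. The pregnant animals differed from each other by less than in most of the set, and the groups did not overlap. Means were 19.3 ± 4.72 CPM in pregnant and 0.690 ± 0.274 CPM in control gilts (SD, n = 4 each), a log2 ratio of 4.81 ± 0.34 (SE). The gene has 3 exons over 447 bases on chromosome 2 (44024848 to 44027664, minus strand).

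Of its tested relatives, both were higher. SAA2, 8568 bases away, averaged 16.2 ± 3.46 CPM in pregnant and 1.31 ± 0.452 CPM in control gilts (log2 change 3.74 ± 0.29, edgeR adjusted p = 1.78e-05). SAA3, 51409 bases away and the form that epithelia are known to make in several mammals, changed by 7.46 ± 0.34. SAA3 met the limits itself and was left out by name, so its call follows from the choice. SAA4 was at 0.0954 CPM in pregnant and 0.0164 CPM in control gilts and was not tested. In the same window GTF2H1, HPS5 and SAAL1 did not pass (adjusted p = 0.327, 0.392 and 0.119). Serum amyloid A genes are near copies of one another, and how the authors' counting shared reads among them is not given, so the split between SAA1P, SAA2 and SAA3 is uncertain.

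STEAP1 belongs to a family of membrane proteins that reduce iron and copper ions at the cell surface and in endosomes. STEAP1 itself lacks the NADPH-binding domain of its relatives and is best known from prostate epithelium. It had 12.2, 4.49, 5.48 and 10.4 CPM in pregnant replicates 1 to 4, against 0.327, 0.0643, 0.713 and 0.888 CPM in control replicates 1 to 4. Pregnant replicates 1 and 4 were both well above 2 and 3, and control replicates 3 and 4 were the highest controls. Means were 8.14 ± 3.75 CPM in pregnant and 0.498 ± 0.372 CPM in control gilts (SD, n = 4 each), a log2 ratio of 4.03 ± 0.63 (SE). It spans 76846190 to 76865849 on the plus strand of chromosome 9, with 6 exons over 1189 bases.

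STEAP2, a metalloreductase 37422 bases downstream, missed the set only at the pregnant limit. It had 9.76, 5.75, 3.71 and 12.7 CPM in pregnant replicates 1 to 4, against 0, 0.129, 0.143 and 0.0613 CPM in control replicates 1 to 4. The log2 change was 6.65 ± 0.58 (edgeR adjusted p = 3.66e-05). Replicates 1 and 4 were above 2 and 3 in both STEAP1 and STEAP2. The next gene, CFAP69, a cilia and flagella protein, changed by 2.54 ± 0.39 (0.00106). The other 2 relatives did not share this. STEAP4 was at 6.05 CPM per kb in pregnant and 12.1 CPM per kb in control gilts, a log2 change of -0.87 ± 0.24 that passed (adjusted p = 0.025) but did not pass without pregnant replicate 1, 2 or 4 or control replicate 4 (adjusted p up to 0.078). STEAP3 was at 13.9 CPM per kb in pregnant and 25.1 CPM per kb in control gilts and did not pass (adjusted p = 0.316).

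LOXL4 is a copper-dependent amine oxidase of the lysyl oxidase family, which cross-links collagen and elastin in the extracellular matrix. It had 4.69, 15.2, 8.25 and 11.8 CPM in pregnant replicates 1 to 4, against 0.851, 0.708, 0.321 and 0.490 CPM in control replicates 1 to 4. Pregnant replicate 1 was the lowest and replicate 2 the highest, by 3.24 times. Means were 9.98 ± 4.53 CPM in pregnant and 0.593 ± 0.234 CPM in control gilts (SD, n = 4 each), a log2 ratio of 4.07 ± 0.43 (SE). The gene has 15 exons over 3527 bases on chromosome 14 (118983484 to 119004856, minus strand).

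None of the other 3 measured lysyl oxidases passed in either direction by edgeR or limma voom, DESeq2 called 1 as lower, and 1 had an unadjusted p under 0.05. LOX was at 6.90 CPM per kb in pregnant and 11.2 CPM per kb in control gilts (log2 change -0.57 ± 0.40, adjusted p = 0.345). LOXL1 changed by -0.80 ± 0.27 (0.0563), and LOXL3 by -0.10 ± 0.14 (0.657). Even in pregnant gilts LOXL4, at 2.83 CPM per kb, was below LOX and LOXL3 (8.10 CPM per kb). The neighbour R3HCC1L, 2602 bases away, rose by 0.65 ± 0.13 (edgeR adjusted p = 0.00496), far less than the ratio of LOXL4.

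TUBAL3 encodes an alpha-tubulin-like protein, a relative of the subunits of microtubules. It had 6.96, 5.92, 4.02 and 8.97 CPM in pregnant replicates 1 to 4, against 0.327, 0.740, 0.0357 and 0.643 CPM in control replicates 1 to 4. Pregnant replicate 3 was the lowest library and only just above the limit. Means were 6.47 ± 2.07 CPM in pregnant and 0.437 ± 0.320 CPM in control gilts (SD, n = 4 each), a log2 ratio of 3.89 ± 0.58 (SE). The model has 3 exons over 1335 bases on chromosome 10 (71596159 to 71599700, minus strand).

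The reads of TUBAL3 may be shared with 100517730, 59497 bases away. The ratio of TUBAL3 to 100517730 counts was 0.846 to 0.980 in the 4 pregnant libraries. In control libraries, with 1 to 23 TUBAL3 reads and 9 to 34 reads of 100517730, it was 0.111 to 0.808. The ID 100517730 changed by 3.43 ± 0.35 (edgeR adjusted p = 1.01e-04). UCN3 is annotated on both sides of this stretch, and the flanking pair 100516639 and CALML5 also had nearly equal counts, at ratios of 1.00 to 1.075 in pregnant libraries. Whether the 2 loci are copies was not tested, and their counts are given as uncertain. Other alpha tubulins were not higher by the test. TUBA1B was at 537 CPM per kb in pregnant and 856 CPM per kb in control gilts (log2 change -0.54 ± 0.15, adjusted p = 0.0241, up to 0.0738 and not past without pregnant replicate 1, 2 or 4 or control replicate 2 or 3), and TUBA4A and TUBA8 did not pass (0.176 and 0.370). TUBAL3 was at 4.85 CPM per kb in pregnant gilts.

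The ID 100738558 had the highest ratio of the set. Its accession is that of a non-coding RNA model, with 2 exons over 576 bases in the transcript used. It had 18.6, 10.8, 9.68 and 24.7 CPM in pregnant replicates 1 to 4, against 0, 0.0965, 0.0713 and 0 CPM in control replicates 1 to 4. Replicates 4 and 1 were the higher pregnant libraries, and 2 of the controls had no read. Over each group this was 2107 reads in pregnant and 5 reads in control libraries. Means were 15.9 ± 7.04 CPM in pregnant and 0.0420 ± 0.0495 CPM in control gilts (SD, n = 4 each), a log2 ratio of 8.57 ± 0.91 (SE).

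**Figure D2:**
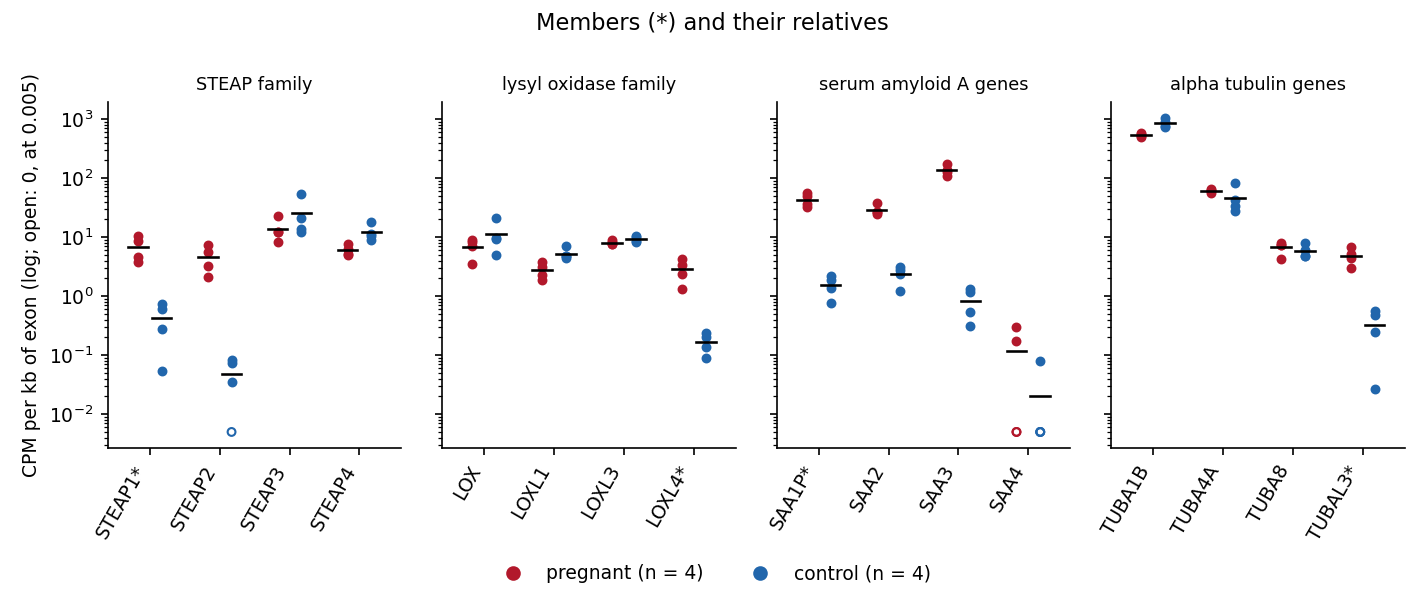
Level per kb of exon, in CPM per kb on a log scale, of 4 genes of the set (starred) beside their relatives, with pregnant libraries left of control libraries. Points are libraries, bars are means of 4, and open circles mark 0 reads. STEAP2, SAA2 and SAA3 are higher in pregnant gilts like the starred genes, and TUBA1B is lower, a call lost without pregnant replicate 1, 2 or 4 or control replicate 2 or 3.

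Of the 3 remaining IDs, 100513930 had the most reads in pregnant gilts. It had 7.10, 25.9, 25.8 and 11.8 CPM in pregnant replicates 1 to 4, against 0.327, 0.193, 0.214 and 0.735 CPM in control replicates 1 to 4. Pregnant replicates 2 and 3 were both well above 1 and 4. Means were 17.7 ± 9.66 CPM in pregnant and 0.367 ± 0.252 CPM in control gilts (SD, n = 4 each), a log2 ratio of 5.59 ± 0.63 (SE). It has 4 exons over 1257 bases on chromosome 6 (72580440 to 72587064, minus strand), among the secreted phospholipase genes PLA2G2A, PLA2G5, PLA2G2F and PLA2G2C. These 4 phospholipases averaged at most 0.0427 CPM in pregnant and 0.0406 CPM in control gilts, too low to test, and UBXN10 did not pass (adjusted p = 0.936).

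The ID 100739494 had 2 neighbours that were lower in pregnant gilts. It had 15.7, 5.31, 11.2 and 5.68 CPM in pregnant replicates 1 to 4, against 0.0327, 0.225, 0.178 and 0 CPM in control replicates 1 to 4. Pregnant replicates 1 and 3 were higher than 2 and 4. Means were 9.47 ± 4.95 CPM in pregnant and 0.109 ± 0.110 CPM in control gilts (SD, n = 4 each), a log2 ratio of 6.44 ± 0.82 (SE). It lies on chromosome 1 (134977474 to 134987046, minus strand, 3 exons over 679 bases). The nearest gene, 100153882, 5085 bases away, fell to 2.88 CPM in pregnant gilts, against 23.9 CPM in controls (log2 change -2.94 ± 0.40, edgeR adjusted p = 5.43e-04). The next, 100739412, fell to 0.903 CPM, against 7.03 CPM in controls (-2.86 ± 0.44, 0.00104).

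The ID 100516362 lies 16384 bases from IL1R2 on chromosome 3 (54936283 to 54956339, plus strand, 8 exons over 1005 bases). It had 6.83, 6.0, 4.41 and 4.40 CPM in pregnant replicates 1 to 4, against 0, 0.129, 0.143 and 0.797 CPM in control replicates 1 to 4. Control replicate 4 held 26 of its 34 control reads. Means were 5.41 ± 1.21 CPM in pregnant and 0.267 ± 0.359 CPM in control gilts (SD, n = 4 each), a log2 ratio of 4.34 ± 0.98 (SE). IL1R2 encodes the decoy receptor that binds interleukin-1 without signalling. IL1R2 averaged 8.18 CPM in pregnant and 0.405 CPM in control gilts (log2 change 4.44 ± 0.50, edgeR adjusted p = 1.80e-04). It was held out of the set by control replicate 4 alone, at 1.01 CPM. MAP4K4, on the other side, changed by 0.37 ± 0.10 (0.0272), and did not pass without pregnant replicate 1, 2 or 4 or control replicate 2 or 3 (adjusted p up to 0.0881).

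Over the whole set, 24 other genes within 100 kb could be tested. Of these, 12 (50%) were higher and 2 were lower in pregnant gilts, beside 11.6% and 10.1% of all genes tested. SAA3, 1 of the 12, met the limits itself and was left out of the set by name. Higher neighbours lay beside 6 of the 9 genes that had a tested neighbour. Without the windows of 100151963 and SAA1P, which hold families of near copies, 6 of 15 (40%) were higher. The windows were set after the values were seen, and genes in 1 window may be copies or share reads, so the counts are a description.

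**Figure D3:**
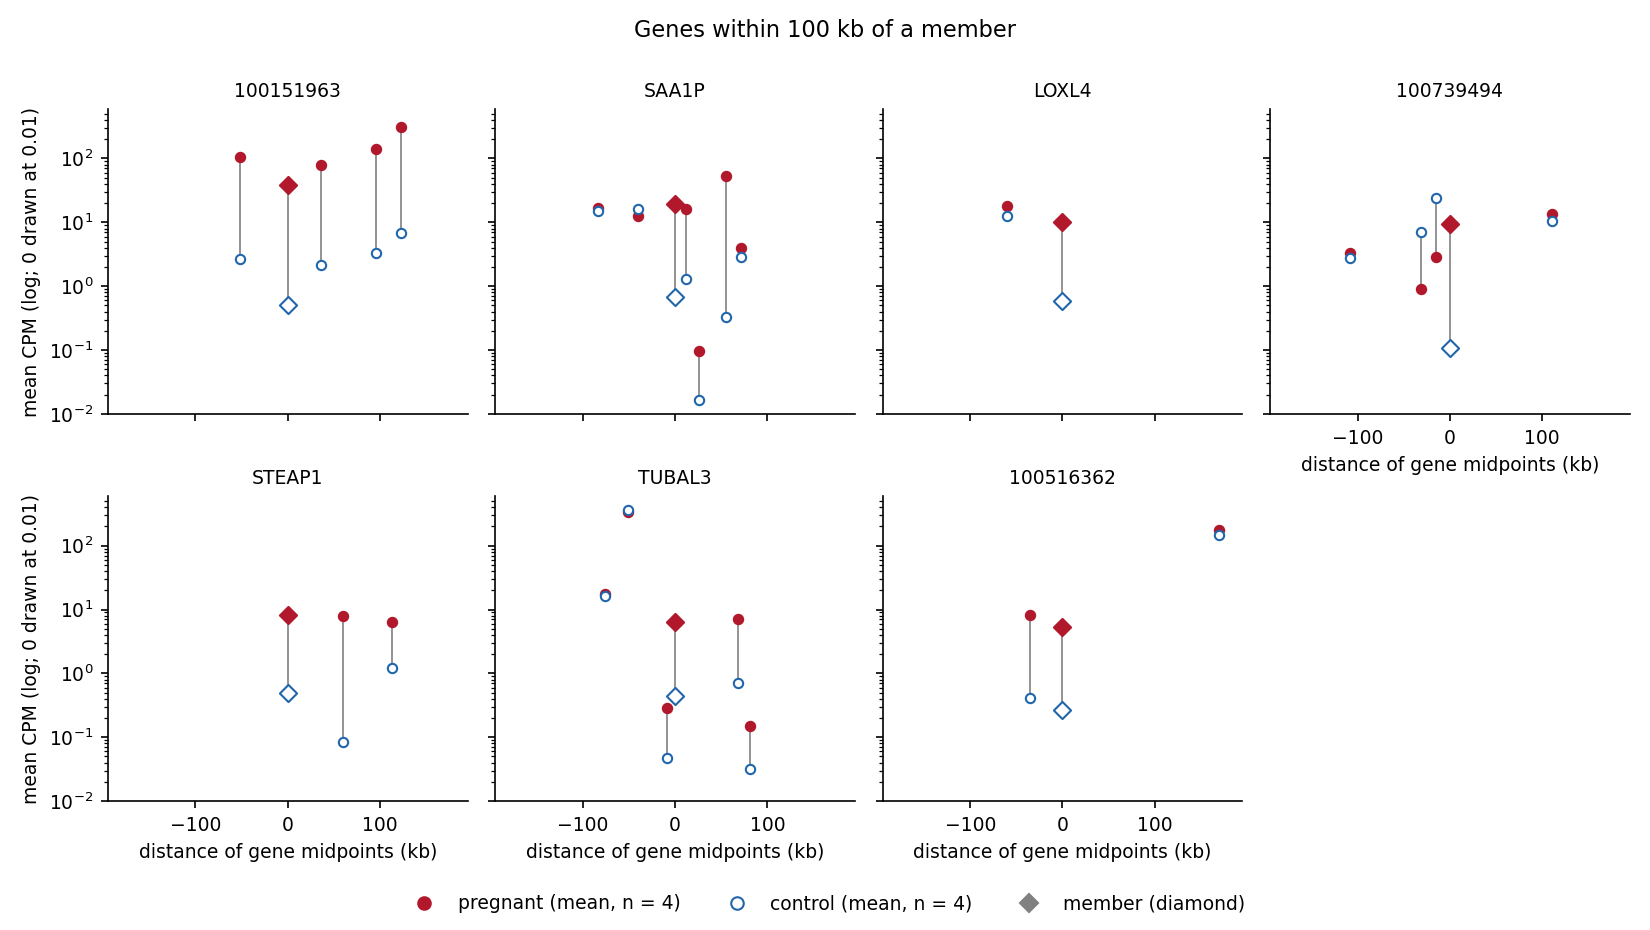
Mean level of the genes around 7 genes of the set, in CPM on a log scale, against the distance between gene midpoints in kb. The 7 were drawn because a neighbour outside the set passed the edgeR threshold, and the rest of the set is left out. Filled red symbols are means of 4 pregnant libraries, open blue symbols are means of 4 control libraries, diamonds are genes of the set, and lines join the groups. Around 100151963 all genes are higher in pregnant gilts, whereas around 100739494 the 2 nearest are lower.

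The 11 genes varied more between pregnant animals than the median gene of like level. The coefficient of variation over the 4 pregnant libraries ran from 22.3% to 59.8% with a median of 45.3%, beside a median of 14.9% over the 6686 genes with mean pregnant levels in the same range. The highest pregnant library was 1.55 to 3.65 times the lowest. Such spread was not particular to the set. Among other genes that were higher in pregnant gilts, CD2 (38.7 ± 19.0 CPM) and STEAP2 (7.99 ± 4.04 CPM) spread widely over pregnant libraries. CD247 (21.3 ± 1.63 CPM) and CD3E (14.8 ± 1.05 CPM) did not (SD, n = 4). The 11 genes did not vary as a single block. The order 4, 1, 2, 3 from high to low was shared by 3 genes, among them 100738558 and TUBAL3, and was found in 6.15% of the 10447 genes expressed in all pregnant libraries, and in STEAP1 too both 1 and 4 were above 2 and 3 (20.1% of those genes). ISG20 and 100513930 had 2 and 3 above 1 and 4 (8.41%). Summed over the set the libraries were closer, as given above.

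**Figure D4:**
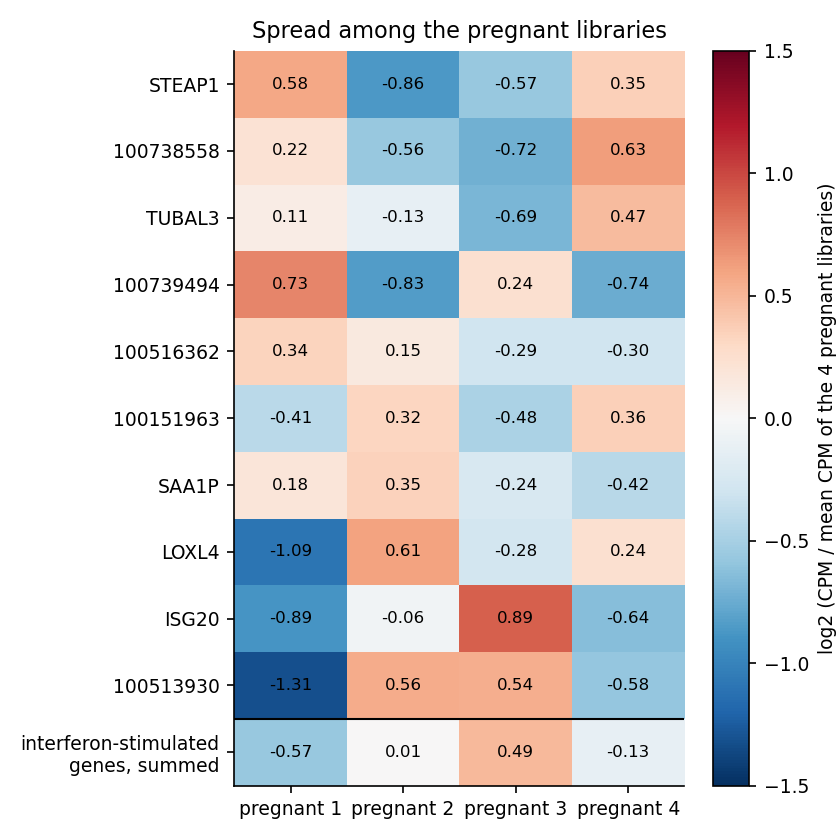
Level of 10 of the 11 genes in each pregnant library relative to its mean over the 4 pregnant libraries, as a log2 value, with the summed interferon-stimulated genes in the last row. Red cells are above the mean and blue cells below. STEAP1, 100738558 and TUBAL3 are red in replicates 1 and 4 and blue in 2 and 3, and ISG20 follows the sum in the last row.

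In structure the 11 genes were somewhat shorter than the rest. They had a median of 4 exons and 1189 exonic bases, against 6 exons and 1511.5 bases over all genes. They lay on 9 chromosomes. In the deposited annotation 10 of them had a single transcript and 1 had several, near the share over all genes (1847 of 21064 with several). Per kb of exon and leaving out ISG20, among the genes with a symbol SAA1P was high (43.2 CPM per kb in pregnant and 1.54 in control gilts) and LOXL4 low (2.83 in pregnant and 0.168 in control gilts). ISG20 came to 129 CPM per kb in pregnant and 2.43 in control gilts on its 185-base model.

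Markers of several cell types differed between the groups. Of all genes tested, 11.6% were higher and 10.1% lower in pregnant gilts. Of 18 other tested T cell markers 14 were higher, with a summed level of 154 to 218 CPM in pregnant and 61.8 to 115 CPM in control gilts. CD2 was among them, at 38.7 ± 19.0 CPM in pregnant and 4.39 ± 1.65 CPM in control gilts (edgeR adjusted p = 4.48e-04). Of 18 natural killer and cytotoxic markers 16 were higher (180 to 255 CPM in pregnant, 47.8 to 108 CPM in control gilts). Of 20 macrophage and dendritic cell markers 15 were higher and 2 lower (1138 to 1455 CPM in pregnant, 438 to 711 CPM in control gilts), with AIF1 at 28.1 ± 5.45 CPM in pregnant and 3.34 ± 1.01 CPM in control gilts. Of 10 neutrophil markers 3 were higher and 1 lower (132 to 503 CPM in pregnant, 19.7 to 24.0 CPM in control gilts), and most of the pregnant sum was S100A9, which itself met the limits. The 3 were the calgranulins S100A8, S100A9 and S100A12, which epithelia can also make, and without them the sum was 5.75 to 7.57 CPM in pregnant and 18.0 to 23.5 CPM in control gilts. MMP8, a collagenase of neutrophil granules, was the lower one. No list of T cell, natural killer or macrophage markers had a member with 0 reads throughout. Of 13 epithelial markers 1 was higher and 4 were lower, with KRT8, a keratin of simple epithelia, down to 281 ± 47.2 CPM in pregnant gilts, against 1307 ± 210 CPM in control gilts. Of 10 B and plasma cell markers 4 were higher and 1 lower. Of 12 stromal fibroblast markers 3 were higher and 2 lower, and of 13 vascular endothelial markers 2 were higher and 0 lower. The part of these shifts in the levels of the 11 genes was not tested.

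Genes of the conceptus were examined in the same way. In a list of 17 tested conceptus and steroid synthesis genes, 6 were higher and 2 lower, beside 11.6% and 10.1% of all genes tested. The summed level was 265 to 385 CPM in pregnant and 343 to 519 CPM in control gilts. PAG1, counted among the 6, is under that symbol a membrane adaptor gene of lymphocytes and not the glycoprotein of the placenta, and 5 of the other 16 were higher. Trophoblast transcription factors of the list that other tissues also express were among these. GATA3 had 845 reads in pregnant and 350 in control libraries, EOMES, also a natural killer cell marker, had 219 in pregnant and 78 in control libraries, and TEAD4 had 3140 in pregnant and 1918 in control libraries. The call of TEAD4 (edgeR adjusted p = 0.0402) was lost when any 1 of the 4 pregnant replicates, or control replicate 2 or 3, was left out (adjusted p up to 0.105). Other genes of the list went the other way. GATA2 was lower, with 10346 reads in pregnant and 18170 in control libraries (edgeR adjusted p = 9.56e-04). PEG10 was lower too, with 216 and 853 reads (0.0106), and TFAP2A, TFAP2C and DLX3 did not pass. Some other genes of the list had few reads, and these leaned either way. CYP19A2, an aromatase of the pig conceptus, had 14 reads in pregnant and 0 in control libraries, and IFNG, an interferon of the elongating conceptus, had 26 and 4. POU5F1 had 10 and 0, all in pregnant replicate 3, and CDX2 had 4 and 0, all in pregnant replicate 1. Controls held more reads of SOX2 (4 in pregnant and 14 in control libraries), CYP17A1 (7 and 11), TTR (38 and 132) and NANOG (38 and 134). The part of conceptus RNA in the levels of the 11 genes was not tested.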

How the data were processed

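Per the file headers, the deposited tables give the authors' raw read count for every transcript in each of the 8 libraries, with exon positions on Sscrofa10.2. Tools listed in the submitters' processing notes were TopHat 1.4, Cufflinks 1.3, CASAVA 1.6 and DESeq, and how reads were counted is not given in the sources used here. There are 24139 transcripts for 21064 genes, and isoforms may share reads. RefSeq (Sscrofa11.1) supplied symbols for 16373 genes and no coordinates. Totals of 28035007 to 41016150 counts set the precision, and PCR reads are not independent molecules.

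CPM are counts over the library total. The 11 genes, 1 of which is not reported here, carry no test, and SE of their log2 ratios come from the spread of CPM over animals. Other genes were tested on the counts by edgeR 4.0.16 (R 4.3.3) with TMM scaling, a filterByExpr minimum of 10 counts, a robust quasi-likelihood fit and group as sole term. Adjustment was by Benjamini-Hochberg over 18783 transcripts, with a threshold of 0.05. limma 3.58.1 (voom) and DESeq2 1.42.0 were alternatives. The procedure was tested on simulated data. Positions count from 1.

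The rule for naming genes took up to 15 members of highest pregnant level and the 3 genes nearest each limit on either side. It also allowed up to 4 genes of smallest p per list, not all of which are named. Values in every library were given for the reported members, STEAP2 and the 3 genes just outside the pregnant limit. Other genes are given by means, reads, changes or single libraries. The members and lists were chosen with earlier results of these data known. Relatives and the 100 kb windows were chosen after the values were seen, as were genes named outside the rule. Replicate numbers did not pair the animals, since deviations of same-numbered libraries correlated at 0.186, -0.093, -0.032 and 0.085.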

Additional observations from a re-analysis of the deposited data

Results flagged for a closer look

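Among 22 sets of 4 libraries checked, each of the 11 genes in each group, 1 held a library far from the rest, where chance gives about 5% of sets. The ID 100151963 was at 0.642 CPM in control replicate 3, and the gap to the nearest control was 0.952 of the whole control range. The value rests on 18 reads, against 14 to 15 reads in the other controls, and is 1 of the values that the limits used.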

How the results depend on the processing

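The number of genes that met the limits depended on the limits. It was 11, and 3 with a control limit of 0.5 CPM, 34 with 2 CPM, 37 with a pregnant limit of 2 CPM and 5 with 8 CPM. It was 14 with TMM-scaled library sizes, which kept all 11 and added IL1R2, RHBG and STEAP2, and 14 with totals over 1 transcript per gene, which kept 6. Leaving out 1 library at a time gave 11 to 17, with 16 without pregnant replicate 1 and 17 without pregnant replicate 3 or control replicate 4. The mirrored rule gave 7 genes, 15 with a limit of 2 CPM in the silent group, 15 with 2 CPM in the expressing group, 3 with 8 CPM there, and 7 to 13 with single libraries left out. Over all transcripts 1898 were lower, and 1265 to 2017 with 1 library left out, the lowest without pregnant replicate 2. Higher neighbours numbered 12, and 6 without the windows of 100151963 and SAA1P.

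With the replicate number as a block 3883 transcripts passed, against 4009, and of the neighbours 12 were higher; only 1 of 4 pregnant libraries correlated best with its own number. Promoter motifs were not run, as no promoter sequences were at hand. Control levels of the 11 genes rest on 5 to 83 reads per gene over 4 libraries, so their ratios are imprecise.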

Other observations

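Beside the interferon response, genes that oestrogen is known to induce in the pig uterus were mostly higher. In that list 9 of 14 tested genes were higher and 1 lower in pregnant gilts by edgeR, with a median log2 change of 1.56. TNFSF10, among the higher ones, is also counted among the higher interferon-stimulated genes, so the lists are not separate. Of all genes tested, 11.6% were higher and 10.1% lower. TRPV6, an epithelial calcium channel, averaged 3408 ± 386 CPM in pregnant and 308 ± 250 CPM in control gilts (SD, n = 4 each; log2 change 3.61 ± 0.46, adjusted p = 4.59e-04). GREB1, a target of the oestrogen receptor, averaged 25.7 ± 9.97 CPM in pregnant and 2.25 ± 2.03 CPM in control gilts (3.64 ± 0.53, 0.00116). None of the 11 genes is on the list of oestrogen-induced genes. Smooth muscle markers included 5 of 9 that were lower, among them CNN1, at 17.4 ± 5.53 CPM in pregnant and 49.1 ± 14.5 CPM in control gilts (-1.37 ± 0.25, 0.00285).

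Nearest outside the pregnant limit were 3 genes that missed it in 1 library each, and others, such as STEAP2, did so by more. RHBG, an ammonium transporter of epithelia, had 13.8, 5.53, 3.93 and 7.78 CPM in pregnant replicates 1 to 4, against 0.131, 0.322, 0 and 0.123 CPM in control replicates 1 to 4. CA3, a carbonic anhydrase best known from muscle, had 7.62, 4.17, 5.94 and 3.97 CPM in pregnant replicates, against 0.262, 0.515, 0.0713 and 0.643 CPM in controls. TFEC, a transcription factor of the MiT family, had 3.90, 5.56, 6.03 and 6.99 CPM in pregnant replicates, against 0.327, 0.579, 0.678 and 0.551 CPM in controls. The groups did not overlap in any of these 3 genes, which were picked for lying just outside the limit and carry no test.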
